A study of Mus musculus with 5 samples.

Results

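The Id proteins Id1, Id2, Id3 and Id4 and the E proteins Tcf4 (E2-2) and Tcf12 (HEB) were followed here. These 6 genes were taken by symbol from the platform's probe annotation, which gave 19 of the 45101 probe sets on the array: 1 for Id1, 3 for Id2, 1 for Id3, 3 for Id4, 6 for Tcf4 and 5 for Tcf12. The arrays were labelled as B220+ cells, enriched on magnetic beads from the marrow of tibias and femurs of FVB mice at 4 weeks of age. Arrays numbered KA/KA 1, KA/KA 2 and KA/KA 3 came, by their labels, from mice with both IKKα alleles carrying the kinase-dead K44A knock-in, and WT 1 and WT 2 from wild-type littermates; the knock-in is in the germ line, so every cell carries it. Whether cells of single or pooled animals were used is not given in the labels, so the p-values measure only the spread between these arrays, which may be technical. B220 is also carried by plasmacytoid dendritic cells, so bead enrichment can hold these beside B cells.

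E proteins are basic helix-loop-helix transcription factors that bind DNA as dimers at the E-box, CANNTG. Id proteins have the helix-loop-helix but no basic region: they pair with E proteins and keep them off DNA. In the marrow, E proteins drive B-cell commitment, while Id proteins hold them back. Elsewhere, Id1 and Id3 are BMP-induced genes of endothelium, Id2 is needed by natural killer cells, innate lymphoid cells and a subset of dendritic cells, Id4 is best known from the nervous system and mammary epithelium, and Tcf4 is the defining factor of plasmacytoid dendritic cells.

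Of the 5 arrays, 3 did not match their label of marrow B220+ cells. Poly-A control transcripts, which hold no mouse RNA, had a median log2 signal of 13.5 and 12.8 on KA/KA 1 and WT 1, against 7.25, 8.05 and 5.97 on KA/KA 2, KA/KA 3 and WT 2. The summed signal of 11 tested pro-B and pre-B markers was 80132 and 100971 on the first pair, against 15565, 17199 and 11465 on the others. The summed signal of 10 lung epithelial markers was 1894 and 1809, against 184990, 210361 and 131648. KA/KA 1 and WT 1 are called the marrow-like pair below, and KA/KA 2, KA/KA 3 and WT 2 the lung-like arrays. Both sets hold both genotypes and are not groups of the study. What tissue lies behind them cannot be settled from the labels. As the sets also differ in the control transcripts, tissue and sample handling cannot be told apart in any difference between them. Values below are log2(signal + 16) unless said otherwise, a scale that compresses changes of dim probe sets. It cannot go below 4, so the size of a difference against values near that floor depends on the constant added. Array medians on it were 6.80 to 7.17.

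Id1, Id3 and Id4 were lower on the marrow-like pair than on the lung-like arrays at all 5 of their probe sets, whereas the main Tcf12 probe sets were higher and neither Id2 nor Tcf4 passed the test. Of the 17 member probe sets kept by a filter on mean signal, 7 passed (limma with the genotype as covariate, Benjamini-Hochberg adjustment over 22519 probe sets), 2 of them higher and 5 lower on the marrow-like pair. That is 41.2% of the members, and over all probe sets 35% passed (15.8% higher and 19.3% lower), so the count by itself does not set the members apart. Of the 7, 2 Id4 probe sets had a mean below the filter value of 7.04 on the marrow-like pair and were kept only through the lung-like arrays, where they are high; the other 5 had both set means above it. The sets did not overlap for 8 of the 17, with 3 higher and 5 lower on the marrow-like pair. Over the 22519 tested probe sets, 64.5% did not overlap (32.3% higher and 32.2% lower).

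**Figure D1:**
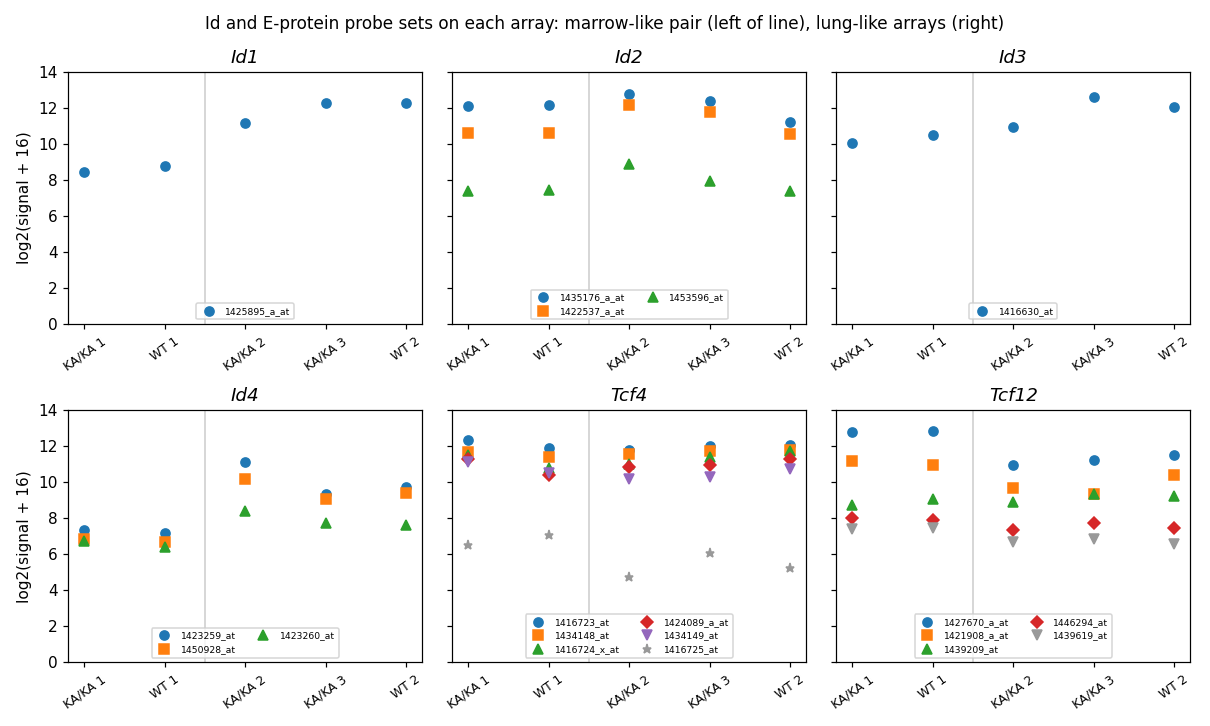
Signal of all 19 member probe sets, as log2(signal + 16) on the vertical axis, on each of the 5 arrays; each symbol is 1 probe set, and grey marks the 2 below the filter. Id1, Id3 and Id4 sit lower on the marrow-like pair than on any lung-like array, the 2 brightest Tcf12 probe sets sit higher, and Id2 and the 5 coloured Tcf4 probe sets overlap between the sets.

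Id1, an inhibitor of E proteins induced by BMP signalling, had the largest difference of the 17. Its probe set, 1425895_a_at, read 8.45 and 8.80 on the marrow-like KA/KA 1 and WT 1, against 11.16, 12.25 and 12.28 on the lung-like KA/KA 2, KA/KA 3 and WT 2. The averages were 8.63 ± 0.24 (SD, n = 2) and 11.90 ± 0.64 (SD, n = 3), and no lung-like value came near the pair. limma gave a difference of -3.35 ± 0.37 log2 units (SE; adjusted p = 0.00118), and Id1 passed in all 16 alternative settings (adjusted p 9.4e-08 to 0.0286).

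Id3, a near relative of Id1 that in lymphocytes is induced by antigen receptor signals, moved the same way by less. Its single probe set, 1416630_at, read 10.05 and 10.47 on KA/KA 1 and WT 1, against 10.97, 12.61 and 12.02 on KA/KA 2, KA/KA 3 and WT 2. The lowest lung-like array, KA/KA 2, was only narrowly above WT 1. The difference was -1.65 ± 0.49 (limma, adjusted p = 0.0391); it no longer passed with each array centred on its median (-1.30, adjusted p = 0.0696) or without a filter (adjusted p = 0.0661), nor without KA/KA 1 (-1.55, adjusted p = 0.252), WT 1 (-1.73, adjusted p = 0.179) or WT 2 (-1.73, adjusted p = 0.167).

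On the marrow-like pair, the 3 probe sets of Id4, a family member with roles in neural and mammary cells, lay between 6.42 and 7.34, close to the array medians. The brightest, 1423259_at, read 7.34 and 7.18 on KA/KA 1 and WT 1, against 11.13, 9.34 and 9.71 on KA/KA 2, KA/KA 3 and WT 2. In the same order of arrays, 1450928_at read 6.85 and 6.69 against 10.17, 9.09 and 9.40, and 1423260_at read 6.75 and 6.42 against 8.40, 7.74 and 7.61. All 3 separated the sets and all were highest on KA/KA 2. The differences were -2.74 ± 0.53, -2.75 ± 0.40 and -1.26 ± 0.34 (limma, adjusted p = 0.00936, 0.00307 and 0.0305). On the marrow-like pair 1450928_at and 1423260_at averaged 6.77 and 6.59, below the filter value, so they had to differ to be kept and their differences and calls are descriptions. Without KA/KA 1 none of the 3 passed (adjusted p = 0.126, 0.0564 and 0.192). Without WT 1 or WT 2, 1423259_at (adjusted p = 0.0807 and 0.0707) and 1423260_at (0.135 and 0.156) did not; 1423260_at also missed under quantile normalisation, median centring and no filter (0.0875, 0.0766 and 0.0613).

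Id2, which innate lymphoid and natural killer cells require, did not separate the sets. The brightest of its 3 probe sets, 1435176_a_at, read 12.09 and 12.16 on KA/KA 1 and WT 1, against 12.76, 12.38 and 11.22 on KA/KA 2, KA/KA 3 and WT 2. The next, 1422537_a_at, read 10.60 and 10.62 against 12.18, 11.79 and 10.57. In both, KA/KA 2 and KA/KA 3 lay above the marrow-like pair and WT 2 was the lowest of all. At 1422537_a_at, however, WT 2 was nearly level with the pair. So it was at 1453596_at (7.36 on WT 2, against 7.39 and 7.45 on KA/KA 1 and WT 1). The differences between the sets were 0.13 ± 0.39 and -0.77 ± 0.38, and -0.55 ± 0.44 for the dimmest, 1453596_at (limma, adjusted p = 0.826, 0.165 and 0.371).

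The 300 bases around the start of 3 of these genes are shown because Id3 and Id4 were both lower on the marrow-like pair and Id2 did not pass the test. They run from 250 bases before to 50 after the start, from RefSeq on GRCm38.p6; capitals mark CANNTG, which reads the same on both strands.
Id2 (chr12:25096043-25096342, minus strand): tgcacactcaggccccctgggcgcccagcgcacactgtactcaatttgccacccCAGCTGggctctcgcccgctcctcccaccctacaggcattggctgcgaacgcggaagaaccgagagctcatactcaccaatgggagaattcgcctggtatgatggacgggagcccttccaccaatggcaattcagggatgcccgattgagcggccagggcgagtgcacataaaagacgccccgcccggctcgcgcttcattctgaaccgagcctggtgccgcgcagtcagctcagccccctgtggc
Id3 (chr4:136143572-136143871, plus strand): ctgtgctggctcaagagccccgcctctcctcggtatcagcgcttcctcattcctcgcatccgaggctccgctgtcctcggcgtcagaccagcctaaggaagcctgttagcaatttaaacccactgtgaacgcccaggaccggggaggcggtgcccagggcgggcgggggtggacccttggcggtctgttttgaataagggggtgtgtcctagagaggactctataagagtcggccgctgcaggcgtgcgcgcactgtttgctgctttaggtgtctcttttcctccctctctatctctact
Id4 (chr13:48260866-48261165, plus strand): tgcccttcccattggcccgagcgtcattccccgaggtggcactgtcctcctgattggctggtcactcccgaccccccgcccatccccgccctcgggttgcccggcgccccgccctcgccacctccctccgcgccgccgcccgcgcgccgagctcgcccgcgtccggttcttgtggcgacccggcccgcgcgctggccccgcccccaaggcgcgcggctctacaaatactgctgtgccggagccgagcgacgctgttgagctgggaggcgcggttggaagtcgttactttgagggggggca

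The window of Id2 held 1 E-box, of the form CAGCTG, and those of Id3 and Id4 held none. The 3 windows of Tcf12 held 1, 2 and 1, and the window of Id1 was not analysed here. Over all 32851 such mouse windows, 72.3% held CANNTG and 16.3% held CAGCTG, which is counted within CANNTG. The palindrome GGCGCC, a GC-rich element of the kind described for BMP-responsive Smad binding, occurred 1 time each in the Id2 and Id4 windows and not in that of Id3, and in 11.9% of all windows. A match of letters in a window is not a bound site, and sequence further away was not searched.

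Among E proteins, Tcf12, which acts with E2A in early lymphocytes, was higher on the marrow-like pair at its 2 brightest probe sets. The brightest, 1427670_a_at, read 12.79 and 12.85 on KA/KA 1 and WT 1, against 10.95, 11.25 and 11.52 on KA/KA 2, KA/KA 3 and WT 2. The next, 1421908_a_at, read 11.15 and 10.98 against 9.70, 9.34 and 10.41. The sets overlapped in neither. The differences were 1.53 ± 0.28 and 1.17 ± 0.33 (limma, adjusted p = 0.00690 and 0.0333). Without KA/KA 1 neither passed (1.33 and 0.56, adjusted p = 0.0713 and 0.386), and without KA/KA 3 1421908_a_at did not (adjusted p = 0.0729), nor did it without a filter (adjusted p = 0.0539). Of the 3 dimmer Tcf12 probe sets, 2 were tested and did not pass. The first, 1439209_at, had a negative difference that turned to 0.0495 with each array centred on its median (-0.30 ± 0.30; 8.71 and 9.05 against 8.88, 9.36 and 9.21), 1446294_at differed by 0.46 ± 0.31, and 1439619_at was below the filter (7.39 and 7.45 against 6.69, 6.83 and 6.54). Which transcripts of the gene each probe set reads was not analysed here.

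Tcf4, the factor of plasmacytoid dendritic cells, did not separate the sets at the 5 probe sets above the filter. Its brightest probe set, 1416723_at, read 12.34 and 11.88 on KA/KA 1 and WT 1, against 11.79, 12.03 and 12.05 on KA/KA 2, KA/KA 3 and WT 2. The other 4 probe sets above the filter lay between 10.15 and 11.77 over all 5 arrays, and the sets overlapped in each. Differences of the 5 ran from -0.25 ± 0.35 to 0.39 ± 0.33, and none passed (limma, adjusted p 0.386 to 0.768); with each array centred on its median, 3 of them changed sign. A sixth probe set, 1416725_at, was below the filter (6.53 and 7.05 against 4.76, 6.06 and 5.23). There the sets did not overlap, and in the fit without a filter the difference was 1.42 ± 0.52 (limma, adjusted p = 0.112). Of the 5, 1416724_x_at carries the suffix for probes that can cross-hybridise.

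**Figure D2:**
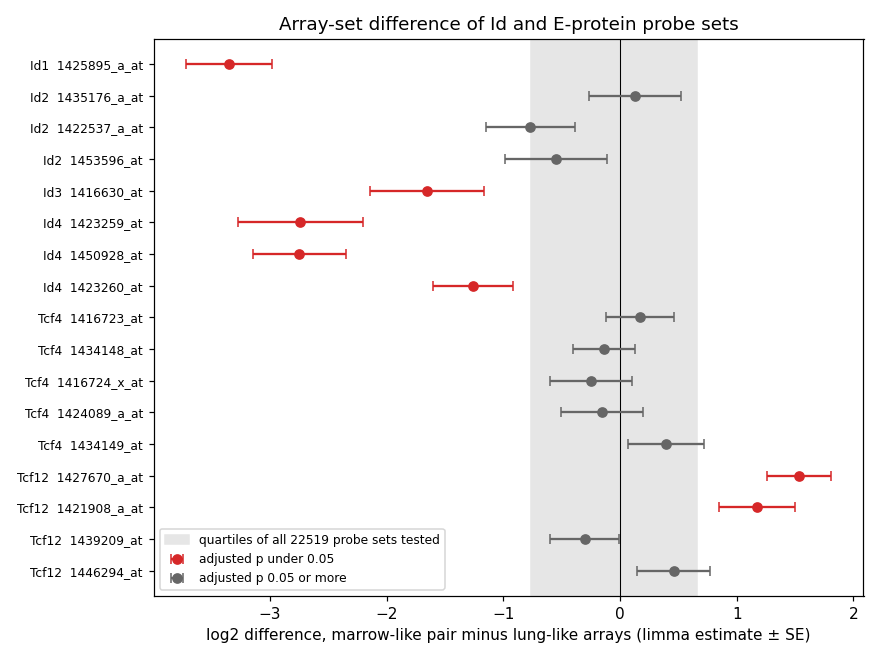
Difference between the array sets (marrow-like pair minus lung-like arrays, log2 units, limma estimate ± SE) for the 17 member probe sets above the filter; red points passed at an adjusted p of 0.05, and the grey band spans the quartiles of all 22519 probe sets tested, from -0.76 to 0.66. The 5 probe sets of Id1, Id3 and Id4 lie left of the band, 2 of Tcf12 right of it, and all of Tcf4 within it. Id2 1422537_a_at (-0.769) lies just left of the band's edge (-0.759) and did not pass.

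Tcf3 (E2A), the E protein most tied to B-cell commitment, is not a member; its brightest probe set differed by 3.52 (limma, adjusted p = 0.000687), reading 12.67 and 12.06 against 8.48, 9.05 and 9.05. Of the list of other helix-loop-helix factors that holds Tcf3, 8 of 18 genes were above the filter, and 2 passed upward and 4 downward (median -1.72), where 14.7% and 22.4% of all 11392 genes did (median -0.04). Tcf21, a factor of lung mesenchyme, read 4.32 and 4.33 on the marrow-like pair, next to the floor, against 10.90, 11.49 and 13.18 on the lung-like arrays (limma, adjusted p = 0.000335). Next came Hey1, a Notch target of endothelium (-4.67, adjusted p = 0.00432), and Bhlhe40 (-2.46, adjusted p = 0.0130). On the marrow-like pair Tcf21 and Hey1 (5.88 and 6.05) lay below the filter value of 7.04. They were kept only through the lung-like arrays, so their differences and calls are descriptions.

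Genes known to be bound or activated by E proteins in B cells were mostly higher on the marrow-like pair. Of 18 listed, 16 were tested, 12 passed upward and 0 downward, with a median of 3.98 log2 units; over all genes 14.7% passed upward. Of the 16, 9 are also among the pro-B and pre-B markers that were summed above to describe the arrays; of the other 7, 3 passed upward and 0 downward. The recombinase Rag1 read 12.80 and 12.79 on KA/KA 1 and WT 1, against 4.09, 4.09 and 4.10 on KA/KA 2, KA/KA 3 and WT 2, which is the floor of the scale (limma, adjusted p = 0.000107). The terminal transferase Dntt read 12.18 and 12.20, against 6.07, 4.22 and 5.28 (adjusted p = 0.000478). The surrogate light chain genes Vpreb1 and Igll1 passed too (adjusted p = 0.000348 and 0.000162), with lung-like values of 4.34 to 6.25. Rag1, Dntt, Vpreb1, Igll1 and also Pax5 lay below the filter value of 7.04 on every lung-like array. They were kept only through the marrow-like pair and had to differ to be kept. Their differences and calls, counted above, are therefore descriptions. The summed signal of the 16 was 83205 and 90466 on KA/KA 1 and WT 1, against 10470, 12740 and 7433 on KA/KA 2, KA/KA 3 and WT 2. In samples of mixed cells, fewer cells of a type and less RNA per cell cannot be told apart.

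Genes of the BMP and TGF-β pathways, which induce Id1 and Id3 in several cell types, were mostly lower on the marrow-like pair. Of 23 listed, 20 were tested, 11 passed downward and 1 upward (median -1.18), where 22.4% of all genes passed downward. Smad6, a BMP-induced inhibitor (-5.21, adjusted p = 0.00344), the receptor Bmpr2 (-4.36, adjusted p = 0.000788) and the ligands Bmp6 (-3.77, adjusted p = 0.0188) and Bmp4 (-3.67, adjusted p = 0.000664) differed most. On KA/KA 1 and WT 1, Smad6 (6.01 and 6.34) and Bmp6 (6.85 and 7.08) averaged below the filter value of 7.04. Both were kept only through the lung-like arrays, so their differences and calls are descriptions. Of 10 tested genes from a list of CDK inhibitors and others tied to the Id and E-protein balance, 5 passed upward and 4 downward. Cdkn2b, an inhibitor of CDK4 and CDK6, was lower (-4.40, adjusted p = 0.000629) and the transcriptional repressor Gfi1 higher (3.14, adjusted p = 0.00214). Cdkn2b read 5.58 and 4.68 on KA/KA 1 and WT 1, below the filter value. Gfi1 averaged below it on KA/KA 2, KA/KA 3 and WT 2 (7.34, 7.43 and 6.07). The differences and calls of both are descriptions.

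**Figure D3:**
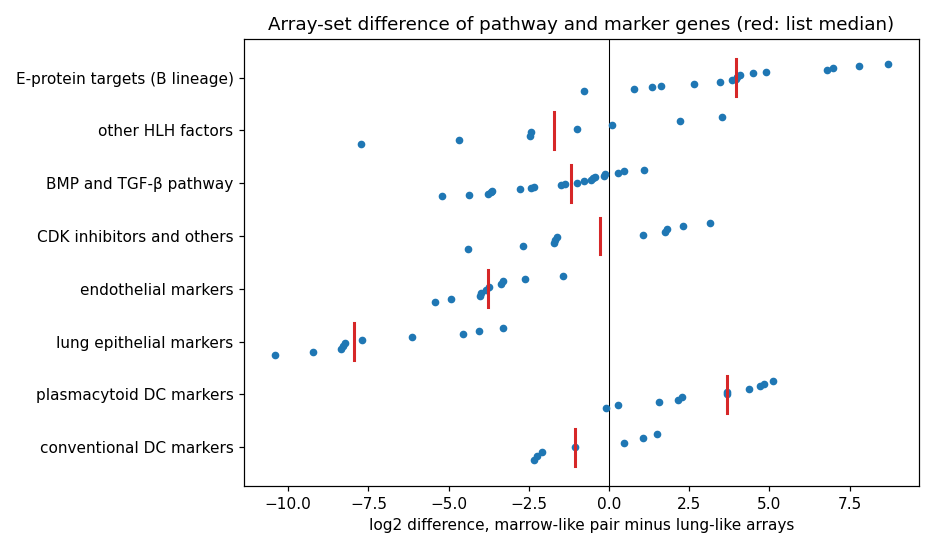
Difference between the array sets (marrow-like pair minus lung-like arrays, log2 units) of each tested gene in 8 lists; a point is a gene and a red bar the list's median. E-protein targets (median 3.98) and plasmacytoid dendritic cell markers (3.69) lie to the right, endothelial (-3.79) and lung epithelial markers (-7.96) to the left.

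Markers of other cells moved with these differences. All 10 endothelial markers were lower on the marrow-like pair, 9 of them past the test, with a summed signal of 3959 and 2697 on KA/KA 1 and WT 1, against 18176, 58106 and 61712 on KA/KA 2, KA/KA 3 and WT 2. Id1 and Id3 were likewise lowest on KA/KA 2 among the lung-like arrays. Id4 had another order: it was highest on KA/KA 2, where 4 tested keratinocyte markers, a list added after the values were seen, summed to 33814, against 1105 and 1402 on KA/KA 3 and WT 2 and 300 and 219 on the marrow-like KA/KA 1 and WT 1. Krt5 and Sprr1a of that list lay below the filter value on all arrays but KA/KA 2. The keratinocyte sums are therefore a description only. Plasmacytoid dendritic cell markers, which accompany Tcf4 in that cell type, were higher on the marrow-like pair past the test in 8 of 11 tested genes (summed signal 36159 and 48105, against 6540, 4853 and 5755), while Tcf4 did not pass. All 6 smooth muscle and all 4 tested cardiac markers were lower on the marrow-like pair, and all 9 neutrophil markers were higher, 6 of them past the test (119931 and 182433, against 32829, 71952 and 6110). Over all tested genes, 14.7% passed upward and 22.4% downward. In each of these lists, some genes averaged below the filter value on the set where they are low. They were kept only through the other set, so their calls are descriptions. The part of these cells in the members' values was not tested.

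The genes closest to each member over the 5 arrays were found by the root mean square distance between centred log2 profiles of 11392 genes. With 5 arrays in 2 sets, such likeness is a description and mostly repeats the array sets. Nearest to Id1 were Cracr2b (0.095 log2 units), Mettl7a1 (0.105) and Tinagl1 (0.139), and nearest to Id3 Efnb1 (0.138), St6galnac3 (0.175) and Ccl27a (0.179). Id4 lay nearest to the secreted proteins Fstl1 (0.171) and Clu (0.208), followed by Clip4 (0.227). Ninj1 (0.063), Slc9a3r1 (0.090) and Ctsw (0.098) were nearest to Id2, whose brightest probe set shares with them a low value on WT 2. At the other Id2 probe sets, WT 2 was nearly level with the marrow-like pair. Tcf12 was nearest to Lsm2 (0.060), Cenpc1 (0.069) and Ppfia4 (0.073), and Tcf4 to Ccp110 (0.040), Cramp1l (0.040) and Mindy2 (0.052). Between members, Id1 and Id3 were the closest pair of Id genes (0.846) and Id1 and Tcf12 the most distant of all (2.39).

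The genotypes were then compared over all 5 arrays, the comparison that the labels give: which of these genes depend on IKKα kinase activity in early B cells. KA/KA 2, KA/KA 3 and WT 2 were lung-like, and this fit held no term for the array set. The fit therefore cannot answer that question for early B cells. No member passed the test. limma called 0 of 22519 probe sets higher and 0 lower (0%), with 47 at an unadjusted p under 0.05 and 0 of the 17 members among them. The genotypes overlapped for all 19 member probe sets, 17 of them tested. Of the 22519 tested probe sets, 7.05% did not overlap (3.87% with KA/KA higher and 3.18% lower). Over KA/KA and WT arrays, Id1 averaged 10.62 ± 1.95 and 10.54 ± 2.46, and Id3 11.21 ± 1.29 and 11.25 ± 1.09 (SD, n = 3 and 2). The brightest probe sets of the others averaged 12.41 ± 0.34 and 11.69 ± 0.67 (Id2), 9.27 ± 1.90 and 8.45 ± 1.79 (Id4), 12.05 ± 0.28 and 11.97 ± 0.12 (Tcf4), and 11.66 ± 0.99 and 12.19 ± 0.94 (Tcf12). With the array set as a block, 0 probe sets were called as well (673 at an unadjusted p under 0.05), and the differences were -0.48 ± 0.37 for Id1, 0.74 ± 0.39 for Id2, -0.32 ± 0.49 for Id3, 0.37 ± 0.53 for Id4, 0.12 ± 0.29 for Tcf4 and -0.27 ± 0.28 for Tcf12 (adjusted p = 0.9996 each). An exact permutation test of 3 against 2 arrays cannot go below 0.1.

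Inside the lung-like arrays, Id2 stood out among the members without passing the test. Both KA/KA arrays lay above WT 2 at all 3 Id2 probe sets: by 1.54 and 1.16 log2 units (KA/KA 2 and KA/KA 3) at the brightest, 1.61 and 1.22 at the second and 1.53 and 0.59 at the third. The fitted differences were 1.35 ± 0.31, 1.42 ± 0.34 and 1.06 ± 0.55, at unadjusted p of 0.00843, 0.00918 and 0.112 and adjusted p of 0.611, 0.615 and 0.796 (limma, n = 2 and 1, with the lone WT array assumed to vary like the KA/KA arrays). Over all tested probe sets, 33.5% had both KA/KA arrays above WT 2 and 36.3% both below, 69.7% in all. Of the 17 members it was 4 and 8, 12 in all. In the fit, 6.95% of all probe sets reached an unadjusted p under 0.05 with 0 called. The 3 probe sets read the same gene on the same RNA and are not independent.

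Blood cell markers differed between the same arrays. All 10 monocyte and macrophage markers and all 7 tested T cell markers were above WT 2 on both KA/KA arrays, with summed signals of 143086 and 112139 against 47121, and of 3342 and 9172 against 1350. Of 9 neutrophil markers, 5 were above WT 2 on both KA/KA arrays and 1 below (median 1.98; sums of 32829 and 71952 against 6110); S100a9, a calcium-binding protein of neutrophils, differed by 3.67 (unadjusted p = 0.00077, adjusted p = 0.481). Of 8 natural killer and innate lymphoid markers, whose cells need Id2, 4 were above WT 2 on both KA/KA arrays and 4 below, with sums of 2551 and 3242 against 3453. Of 7 conventional dendritic cell markers 3 were above on both arrays and 1 below (4735 and 6928 against 2546); Fscn1, an actin-bundling protein of mature dendritic cells, had the smallest p among them (2.60, unadjusted p = 0.000994, adjusted p = 0.481). Their part in the Id2 values was not tested.

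Of the other Id genes, Id1 lay below WT 2 on both KA/KA arrays, Id3 and 2 of the 3 Id4 probe sets split, and 1423260_at of Id4 lay above on both (0.79 and 0.13), none past the test. Id1 differed from WT 2 by -1.12 on KA/KA 2 and by -0.04 on KA/KA 3, and Id3 by -1.06 on KA/KA 2 and 0.58 on KA/KA 3. The brightest Id4 probe set differed by 1.42 on KA/KA 2 and -0.37 on KA/KA 3. The endothelial sum given above was also lower on KA/KA 2 than on the other lung-like arrays. The keratinocyte sum, from the list added after the values were seen, was higher there. Their part in these values was not tested. The fitted differences, -0.58 ± 0.53, -0.24 ± 0.71 and 0.52 ± 0.79 (limma, adjusted p = 0.9003, 0.973 and 0.937), were smaller than the gap between the KA/KA arrays.

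For the E proteins, both lung-like KA/KA arrays lay below WT 2 at all 5 Tcf4 probe sets above the filter, with differences of -0.69 to -0.02 log2 units, and at the 2 brightest of Tcf12. Over all tested probe sets, 36.3% did so. The other tested Tcf12 probe sets split (1439209_at by -0.33 and 0.14, 1446294_at by -0.11 and 0.30). Below the filter, 1416725_at of Tcf4 split (-0.47 and 0.82) and 1439619_at of Tcf12 lay above on both (0.15 and 0.29). At the brightest, Tcf12 differed from WT 2 by -0.57 on KA/KA 2 and -0.27 on KA/KA 3, and at the next by -0.72 and -1.08. None passed: fitted differences were -0.14 ± 0.29 for the brightest Tcf4 probe set and -0.42 ± 0.30 and -0.90 ± 0.35 for Tcf12 (limma, adjusted p = 0.958, 0.867 and 0.719). Tcf3, described above, had a fitted difference of -0.28, but only KA/KA 2 lay below WT 2 (8.48 on KA/KA 2, against 9.05 on both KA/KA 3 and WT 2). Some markers of other cells were also below WT 2 on both KA/KA arrays: all 4 tested cardiac markers (sums of 1131 and 8162 on KA/KA 2 and KA/KA 3, against 36645 on WT 2), 5 of 6 smooth muscle markers (20569 and 16691 against 25396) and 7 of 10 endothelial markers. Of 10 lung epithelial markers, 7 were above WT 2 on both and 1 below (184990 and 210361 against 131648). Over all 11392 tested genes, 4255 were below on both and 3809 above. Their part in the Tcf4 and Tcf12 values was not tested.

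**Figure D4:**
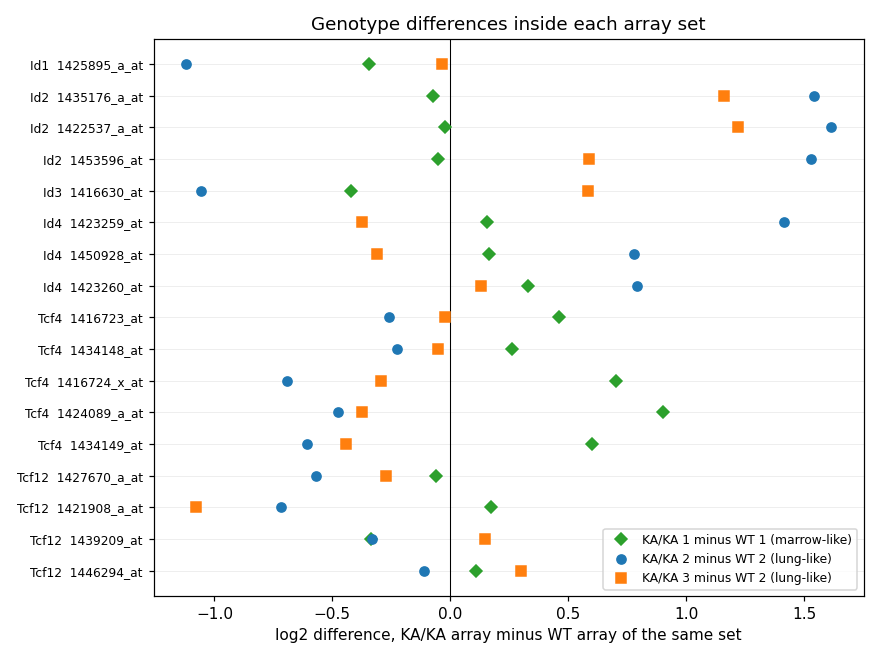
Log2 difference of each KA/KA array from the WT array of its own set for the 17 member probe sets above the filter; diamonds are the marrow-like pair, circles and squares the lung-like KA/KA 2 and KA/KA 3. Id2 lies 0.59 to 1.61 above WT 2 on the lung-like arrays and between -0.07 and -0.02 in the marrow-like pair, and Tcf4 lies right of zero in the pair and left of it on the lung-like arrays.

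The marrow-like pair has 1 array of each genotype, so its differences have no replicate check. Id2 differed by -0.07, -0.02 and -0.05 log2 units (KA/KA 1 minus WT 1) at its 3 probe sets, Id1 by -0.34, Id3 by -0.42 and Id4 by 0.16, 0.16 and 0.33. Tcf12 differed by -0.06 and 0.17 at its 2 brightest probe sets. Tcf4 was higher on KA/KA 1 at all 5 probe sets above the filter, by 0.26 to 0.90, with 0.46 at the brightest. Over all tested probe sets, 54.2% were higher on KA/KA 1. Differences of at least 0.5 were seen at 3 of the 17 member probe sets, each of Tcf4, and at 30% of all; differences of at least 1 were seen at 0 of the 17 and at 4.41% of all. Of the plasmacytoid dendritic cell markers, 3 of 11 were higher on KA/KA 1, with a median of -0.61.

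At the 5 Tcf4 probe sets above the filter, the genotype differences had opposite signs in the array sets. At 1416725_at, below the filter, the difference was -0.52 in the marrow-like pair. On the lung-like KA/KA 2 and KA/KA 3 it was -0.47 and 0.82. Tested as a difference between the genotype differences of the sets (lung-like minus marrow-like, limma, single arrays assumed to vary like the 2 lung-like KA/KA arrays), 0 probe sets were called and 5.88% reached an unadjusted p under 0.05. The brightest Tcf4 probe set gave -0.60 ± 0.45 and the largest of the gene -1.33 ± 0.46 (1424089_a_at; unadjusted p = 0.0375, adjusted p = 0.824). Id2 gave 1.43 ± 0.48 and 1.44 ± 0.51 (unadjusted p = 0.0327 and 0.0396, adjusted p = 0.824 for both). Neither gene's genotype difference was therefore shown to differ between the sets.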

How the data were processed

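RNA of 5 samples was measured on Affymetrix mouse genome arrays from 150 ng of total RNA, per the labels. The authors deposited 1 linear intensity per probe set and array; MAS5 is named, without a version, in the submitters' processing notes, and the series text speaks of log2 values from Partek. The values are linear, and their mean without the top and bottom 2% is 500 on each array. No further scaling was done. Symbols came from the platform annotation (34958 probe sets with 1 symbol, 932 with several, none of these holding a member). The 64 control probe sets were left out, except that 24 poly-A controls defined the array sets (border: median log2 signal of 10).

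log2(signal + 16) was fitted with limma 3.58.1 in R 4.3.3 (lmFit, eBayes with an intensity trend), two-sided, at an adjusted p of 0.05, over the 22519 probe sets with a mean at or above the median of all (7.04). Array sets were compared in a fit of set plus genotype, and genotypes within sets in a fit of 1 mean for each genotype and set. Of a gene's probe sets, the brightest in the mean stands for it in lists. Listed genes with a set mean below the filter value were kept only through the other set, so their calls are descriptions. The transcript of the mutated gene was not analysed here, so the knock-in was not checked in these signals. Depth has no counterpart on arrays, and their number limits the precision. Fits were tested on simulated data. The member genes and gene lists were chosen with earlier results of these data known. All member probe sets are described; of each list at most 4 genes are named, those of the largest difference between the sets, or of the smallest p for genotype; 3 nearest genes are named for each member; Tcf3 and single probe sets were singled out after their values were seen. Alternatives were quantile normalisation, median centring, pseudocounts of 1 and 64, a floor at the 20th percentile, other filters, eBayes settings, 1 probe set per gene, other covariates and leaving out each array.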

Additional observations from a re-analysis of the deposited data

How the results depend on the processing

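Directions of Id1, Id3, Id4 and the 2 brightest Tcf12 probe sets between the array sets held in all alternatives run. Id1 passed in all 16; Id3 passed in 11 of 16 (adjusted p up to 0.252), and the brightest Id4 and Tcf12 probe sets in 12 of 15 (up to 0.126) and 15 of 16 (up to 0.0713). Median centring moves every difference between the sets by 0.35. It gave 6017 probe sets higher in place of 3547 and turned 4 small differences (1434148_at of Tcf4 to 0.22, 1416724_x_at to 0.10, 1424089_a_at to 0.20, and 1439209_at of Tcf12 to 0.0495). The upper-quarter filter, which tests fewer probe sets, called 1950 higher and 1808 lower, and 1 probe set per gene 1617 and 2447; member calls were 4 under both and 4 without a filter. Leaving out 1 array each gave 1221 to 3824 higher, 2038 to 4771 lower and 1 to 7 member calls, the lowest of these without KA/KA 1. In these runs Id2 ranged from -0.48 to 0.95, -1.39 to 0.0535 and -1.03 to 0.0884, and Tcf4 from -0.17 to 0.43, -0.93 to 0.26, -0.91 to 0.41, -0.36 to 0.0388 and -0.25 to 0.88.

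For genotype over 5 arrays, Id1 (0.08) turned to -0.00326 under quantile normalisation, -0.48 with the array set as a block and -0.73 with the replicate number as a block. That replicate block called 3 probe sets higher, none of a member; the labels' numbers pair only 2 arrays each way and are not stated to mark a shared animal or day. Without 1 array each, values ran from -1.66 to 1.82 for Id1, 0.25 to 1.19 for Id2 (the lowest without WT 2, the highest without WT 1), -0.81 to 0.73 for Id3, -0.44 to 2.09 for Id4, -1.19 to 0.14 for Tcf12 and -0.0555 to 0.22 for Tcf4. On the lung-like arrays, they ran from -1.06 to 0.58 for Id3, -0.37 to 1.42 and -0.31 to 0.78 for Id4, and -0.33 to 0.14 and -0.11 to 0.30 for dim Tcf12 probe sets; without a lung-like KA/KA array no test remained, and without WT 2 no value. In the marrow-like pair, 993 probe sets differed by at least 1 log2 unit, against 437 with a pseudocount of 64, 4370 without a filter, 348 under the upper-quarter filter and 502 with 1 probe set per gene. No other cause of these changes was tested.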
